A study of Mus musculus with 3 samples.

Results

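The genes described here belong to families named for enzymes and adaptors that attach ubiquitin to proteins or remove it. They were chosen by name: every gene with a protein-coding transcript in either of the deposited tables whose symbol belongs to the families Ube, Ubr, Rnf, Trim, Cul, Fbxo, Fbxw, Fbxl, Usp or Otud, or is Huwe1, with Fbxo15 left out. A few match by name only, such as Usp6nl and the Nedd8 conjugating enzymes Ube2f and Ube2m. This gave 155 of 8547 gene symbols in the series, or of 6505 with a protein-coding transcript. The Mettl3 table listed 132 of them with 158 transcripts, and the Zfp217 table listed 99 with 117 transcripts. Below, a gene is called listed where a table holds a protein-coding transcript of it. Huwe1, with transcripts of other classes only, was listed in neither.

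The cells were CCE mouse embryonic stem cells, an established line grown without feeders, with leukemia inhibitory factor in the medium and no treatment. RNA bound to a protein was recovered by RIP-seq, in which the protein is immunoprecipitated and the RNA that comes with it is sequenced. There were 3 libraries: 1 Mettl3 RIP made with an antibody from Bethyl, 1 Zfp217 RIP made with an antibody from Santa Cruz, and 1 input. Nuclear lysate was the starting material of both RIPs, so the values concern nuclear RNA. Mettl3 is the methyltransferase that places m6A, the methylation of adenosine in mRNA, and Zfp217 is a DNA-binding zinc finger protein found with corepressors. The question of the series was which RNAs associate with either protein, and its title links Zfp217 to m6A. No library from a control antibody was analysed here.

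Each group had 1 library, so there are no replicate errors and no p-values, and each ratio compares libraries rather than conditions. Levels are in FPKM, fragments per kilobase of transcript scaled to mapped fragments, and each belongs to 1 Ensembl transcript. The depth of the libraries is unknown, so no counting interval is given. Both tables are selections: RIP values start at 1.0 FPKM in each, and ratios over a nonzero input start at 1.5. A gene that is not listed may lie below these limits, and every listed transcript is higher in its RIP by construction. The tables listed 6 of 8 marker genes of embryonic stem cells and 0 of 11 markers of endoderm, mesoderm, neural cells or fibroblasts. In bulk libraries such as these, more cells with an RNA and more RNA per cell cannot be told apart.

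Ubiquitin is passed from an activating enzyme to a conjugating enzyme, most of which are named Ube2, and a ligase then transfers it to the substrate. RING ligases, among them the Rnf and Trim proteins, hold conjugating enzyme and substrate together, while cullin ligases are built on a Cul scaffold and choose substrates through adaptors such as the F-box proteins Fbxo, Fbxw and Fbxl. Usp and Otud proteins are deubiquitinases, which take ubiquitin off again. In embryonic stem cells this system sets the turnover of transcription factors and marks histones.

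A difference between the tables that can be read in sequence is the coding start of Cul4b, the scaffold of a cullin ligase that binds its substrates through Ddb1. Cul4b lies on chromosome X from 38533274 to 38576196 on the minus strand (GRCm38, GENCODE M21). The Mettl3 table listed its transcript ENSMUST00000016681, and the Zfp217 table listed ENSMUST00000115118. The coding sequences share their last 2676 bases. They begin with 12 bases of their own in ENSMUST00000016681 and 234 bases of their own in ENSMUST00000115118, shown in capitals, 5′ to 3′, before the first shared bases in lower case.
ENSMUST00000016681: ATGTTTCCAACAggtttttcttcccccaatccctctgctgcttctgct
ENSMUST00000115118: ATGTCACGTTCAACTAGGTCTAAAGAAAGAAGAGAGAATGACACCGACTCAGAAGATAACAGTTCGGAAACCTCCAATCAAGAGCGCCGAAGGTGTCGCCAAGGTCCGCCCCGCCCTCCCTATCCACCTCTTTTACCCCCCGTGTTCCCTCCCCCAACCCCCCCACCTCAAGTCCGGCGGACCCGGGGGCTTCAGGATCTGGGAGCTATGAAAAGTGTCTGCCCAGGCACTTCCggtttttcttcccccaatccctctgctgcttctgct

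ENSMUST00000016681 of Cul4b had 35.6 FPKM in the Mettl3 RIP and 11.3 FPKM in the input, 3.16-fold higher. ENSMUST00000115118 had 9.40 FPKM in the Zfp217 RIP and 1.96 FPKM in the input, 4.80-fold higher, the highest ratio of any of these families in the Zfp217 table among transcripts with an input of at least 1 FPKM. Neither transcript was listed in the other table. FPKM values of transcripts that share most of their bases depend on how fragments were divided between them, and the part of that division in this difference was not tested.

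Ratios over input were first summarised over transcripts with an input of at least 1 FPKM, where the ratio does not rest on an input near 0. The counts at 2-fold and the highest and lowest ratios of a family given below keep to this limit, and transcripts with a lower input can have higher ratios. In the Mettl3 table, 52 of 92 such transcripts were at least 2-fold higher in the RIP than in the input. That is 56.5%, near the 54.6% of all 3100 listed protein-coding transcripts under the same limit. The median log2 ratio was 1.08 in the ubiquitin families and 1.05 in all. In the Zfp217 table, 28 of 60 transcripts were at least 2-fold higher in the RIP, which is 46.7%, where the share of all 1980 was 39.2%. The median log2 ratio there was 0.97 in the ubiquitin families and 0.90 in all. Shares this close to the background are not a result about these families. At the 2-fold limit, Usp19 stood just inside at 2.04 and Rnf169 just outside at 1.9986 in the Mettl3 table, and Fbxo45 just inside at 2.00 and Ube2w just outside at 1.99 in the Zfp217 table.

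**Figure D1:**
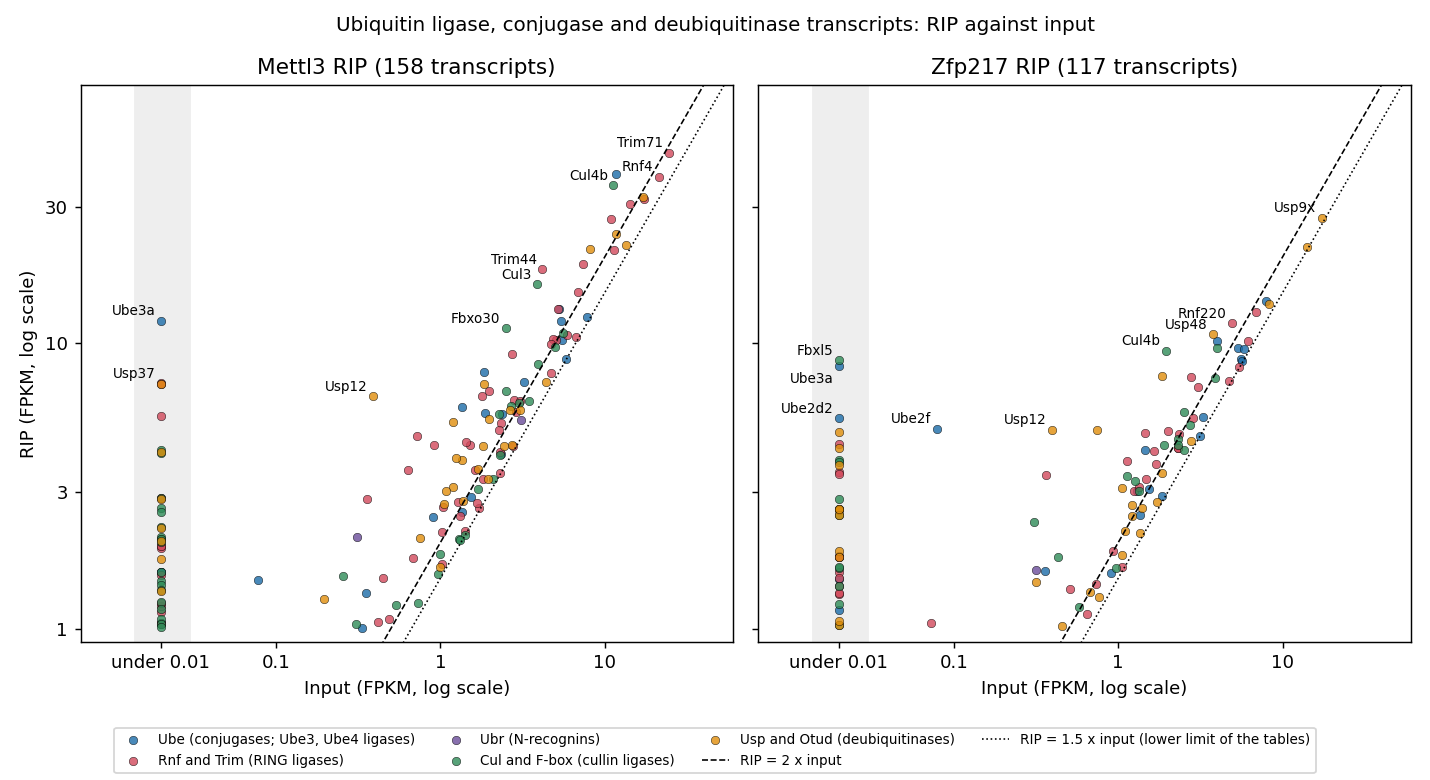
RIP level (vertical, FPKM, log scale) against input level (horizontal, FPKM, log scale; the grey strip holds inputs under 0.01 FPKM) of every listed transcript of the ubiquitin families, 158 for Mettl3 and 117 for Zfp217, coloured by role, with labels on some of the genes named in the text. Points crowd between the 1.5-fold and 2-fold lines at high input, and a column of transcripts, led by Ube3a at 11.97 FPKM in the Mettl3 RIP, has almost no input signal.

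Among the conjugating enzymes and other Ube genes, 8 of 14 Ube transcripts with an input of at least 1 FPKM reached 2-fold in the Mettl3 RIP, 57.1%, and 3 of 13 in the Zfp217 RIP, 23.1%. The shares of all protein-coding transcripts were 54.6% and 39.2%. In the Mettl3 table all 8 were Ube2 transcripts, of 12. Ube2v2, an inactive variant that pairs with Ube2n, was highest above the input limit, with 5.96 FPKM in the Mettl3 RIP and 1.35 in the input, 4.41-fold. Its partner Ube2n, which builds signalling ubiquitin chains, had 5.69 FPKM in the Mettl3 RIP and 1.86 in the input. Ube2a, the conjugating enzyme of DNA damage tolerance, had 7.92 FPKM in the Mettl3 RIP and 1.84 in the input, 4.31-fold. Both Ube2v2 and Ube2a stood lower in the Zfp217 table, at 1.83-fold and 1.57-fold.

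Ube2d3, a conjugating enzyme that works with many ligases, was the most abundant of the Ube group in the Mettl3 RIP, at 39.0 FPKM against 11.8 in the input. Ube2d1, Ube2d2 and Ube2d3 are close in sequence, so fragments may have been split among them. In the Zfp217 table the highest Ube ratio above the input limit was that of a Ube2k transcript, with 4.23 FPKM in the RIP against 1.45 in the input, 2.92-fold. The most abundant was Ube2q1, at 14.0 FPKM in the Zfp217 RIP and 7.93 in the input. Ube2j2, a conjugating enzyme of the endoplasmic reticulum membrane, was lowest at 1.501-fold in one transcript, with 4.71 FPKM in the Zfp217 RIP and 3.14 in the input. Its other listed transcript had 10.2 FPKM in the Zfp217 RIP and 4.02 in the input.

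Ube3a, a ligase of the HECT type whose loss causes Angelman syndrome in humans, had the highest RIP level of any transcript in the ubiquitin families with an input under 0.01 FPKM in the Mettl3 table. It had 11.97 FPKM in the Mettl3 RIP and 8.29 FPKM in the Zfp217 RIP, with 0.000332 and 0.000395 FPKM in the input as the tables give it, so no fold is stated. Its transcript ENSMUST00000085231 was the only Ube3a transcript listed in either table. Ube4b, a U-box ligase that lengthens ubiquitin chains, had 8.80 FPKM in the Mettl3 RIP and 5.78 in the input, and 9.54 FPKM in the Zfp217 RIP and 5.83 in the input. Both of its ratios were under 2-fold.

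The Rnf genes were the most numerous, with 42 transcripts in the Mettl3 table and 28 in the Zfp217 table. Of those with an input of at least 1 FPKM, 17 of 30 reached 2-fold in the Mettl3 RIP, 56.7%, and 12 of 17 in the Zfp217 RIP, 70.6%, where the shares of all were 54.6% and 39.2%. The Zfp217 share depended on the processing. With 1 FPKM added it was 6 of 21, or 28.6%, at a mean of at least 1 FPKM, beside 45.2% of all. With no limit and 1 FPKM added it was 10 of 28, or 35.7%, beside 53.3% of all. Other input limits without an added constant gave 14 of 21 at 0.5 FPKM, beside 46.6% of all, and 5 of 9 at 2 FPKM, beside 32.0%. Rnf4, which binds proteins carrying SUMO chains, was the most abundant for Mettl3 at 38.2 FPKM in the RIP against 21.4 in the input, 1.79-fold, and was not listed for Zfp217. Rnf2, the ligase of Polycomb complexes that marks a histone with ubiquitin, had 30.5 FPKM in the Mettl3 RIP and 14.3 in the input, 2.13-fold, and was not listed for Zfp217.

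Several Rnf transcripts were high in both RIPs. Rnf19b, a ligase with a RING-between-RING fold, had 4.49 FPKM in the Mettl3 RIP, 4.86 in the Zfp217 RIP and 1.44 to 1.46 in the input, ratios of 3.11 and 3.33. Rnf10 had 9.14 FPKM in the Mettl3 RIP and 7.62 in the Zfp217 RIP, 3.34-fold and 2.75-fold over an input of 2.74 and 2.77. Rnf139, a ligase of the endoplasmic reticulum membrane, was 3.40-fold higher in the Mettl3 RIP and 2.44-fold higher in the Zfp217 RIP, a value that fell under 2-fold, to 0.97 on the log2 scale, with 1 FPKM added. The highest Rnf ratio for Zfp217 above the input limit was that of Rnf111, a ligase that acts in TGF-beta signalling, with 3.86 FPKM in the RIP against 1.13 in the input, 3.42-fold. The most abundant was Rnf220, with 11.7 FPKM in the Zfp217 RIP and 4.90 in the input. At the other end, Rnf114 was 1.51-fold higher in the Zfp217 RIP and Rnf121 was 1.52-fold higher in the Mettl3 RIP.

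The Trim genes had 19 symbols in the Mettl3 table and 9 in the Zfp217 table, where all protein-coding symbols numbered 5311 and 4311. Of Trim transcripts with an input of at least 1 FPKM, 5 of 9 reached 2-fold in the Mettl3 RIP, 55.6%, and 0 of 3 in the Zfp217 RIP. The shares of all protein-coding transcripts were 54.6% and 39.2%. With 1 FPKM added the Zfp217 count was 2 of 5 at a mean of at least 1 FPKM, beside 45.2% of all. It was 6 of 9 with no limit, beside 53.3% of all. A listed transcript with an input of 0 cannot miss 2-fold in that setting, because RIP values start at 1.0 FPKM. Trim8, Trim23 and Trim27, the 3 with an input of at least 1 FPKM, stayed under 2-fold for Zfp217 with 1 FPKM added. Trim71, an RNA-binding protein of early embryos and stem cells, had the highest RIP level of all the families, with 46.3 FPKM in the Mettl3 RIP and 24.4 in the input. Its ratio was 1.90, and it was not listed for Zfp217. Trim44, a family member without a RING domain, had the highest Trim ratio above the input limit, with 18.1 FPKM in the Mettl3 RIP and 4.16 in the input, 4.34-fold.

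Trim24 and Trim33 are corepressors that read chromatin marks. Trim24 had 9.94 FPKM in the Mettl3 RIP and 4.68 in the input, 2.12-fold. Trim33 had 7.21 FPKM in the Mettl3 RIP and 4.42 FPKM in the Zfp217 RIP, against an input under 0.01 FPKM in both tables. Near-zero inputs were frequent in the group, at 9 of 19 Trim transcripts for Mettl3 and 6 of 9 for Zfp217. For comparison, 27.7% of all protein-coding transcripts in the Mettl3 table and 37.1% in the Zfp217 table had such an input. In the Zfp217 table the highest Trim ratio above the input limit was that of Trim23, at 1.86, and the lowest that of Trim27, with 10.1 FPKM in the RIP against 6.15 in the input, 1.65-fold.

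**Figure D2:**
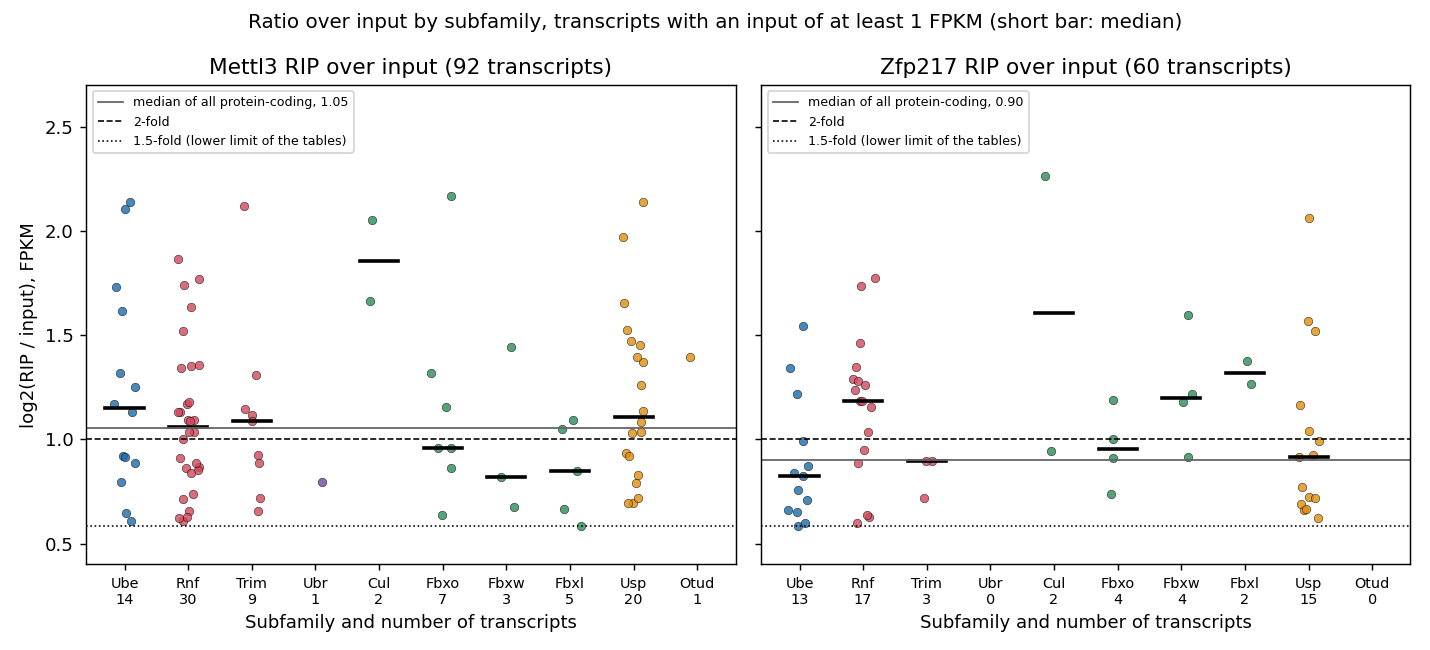
log2 ratio of RIP over input in FPKM (vertical) for each transcript with an input of at least 1 FPKM, by subfamily (horizontal, with the number of transcripts), for Mettl3 (left) and Zfp217 (right); short bars are subfamily medians and the grey line is the median of all listed protein-coding transcripts, 1.05 and 0.90. Points start at the 1.5-fold limit of the tables, Rnf and Ube have close medians for Mettl3 (1.06 and 1.15), and for Zfp217 Rnf lies at 1.18 and Ube at 0.82.

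Of the Ubr genes, whose products recognise destabilising amino termini, Ubr1 had 5.40 FPKM in the Mettl3 RIP and 3.11 in the input, 1.73-fold, and was not listed for Zfp217. Ubr3 was in both tables, with 2.09 FPKM in the Mettl3 RIP, 1.61 FPKM in the Zfp217 RIP and 0.313 to 0.318 FPKM in the input.

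Among cullins, Cul3, the scaffold for adaptors with a BTB domain, had 16.0 FPKM in the Mettl3 RIP and 3.87 in the input, 4.14-fold. The same transcript had 7.53 FPKM in the Zfp217 RIP and 3.91 in the input, 1.92-fold. Cul2 and Cul5 were listed in both tables with an input of 0 FPKM: Cul2 had 2.27 FPKM in the Mettl3 RIP and 2.50 FPKM in the Zfp217 RIP, and Cul5 had 2.07 and 1.64 FPKM. Cul1 and Cul4a had no protein-coding transcript in either table.

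F-box transcripts with an input of at least 1 FPKM were at least 2-fold higher in 6 of 15 cases for Mettl3 and in 7 of 10 cases for Zfp217, 40.0% and 70.0%, where the shares of all were 54.6% and 39.2%. These shares depended on the processing. With 1 FPKM added and a mean of at least 1 FPKM, Fbxo had 3 of 8 for Zfp217, Fbxw 2 of 5 and Fbxl 2 of 4, beside 45.2% of all. With an input limit of 2 FPKM, Mettl3 counts in this order were 3 of 5, 1 of 3 and 2 of 3, beside 51.5% of all. The Zfp217 counts under that limit were 1 of 3, 1 of 2 and 1 of 1, beside 32.0%. Above the input limit, Fbxo30 had the highest Mettl3 ratio of all the families, with 11.3 FPKM in the Mettl3 RIP and 2.51 in the input, 4.50-fold. The same transcript had 4.23 FPKM in the Zfp217 RIP and 2.53 in the input, 1.67-fold, the lowest of the Fbxo group there. Fbxo33 ran the other way, at 1.56-fold in the Mettl3 RIP, lowest of its group, and 2.28-fold in the Zfp217 RIP, highest of its group. Fbxw11, a substrate receptor for beta-catenin, was high in both, with 6.80 FPKM in the Mettl3 RIP and 5.73 FPKM in the Zfp217 RIP, 2.72-fold and 2.26-fold. Fbxl14 was 2.13-fold higher in the Mettl3 RIP and 2.40-fold higher in the Zfp217 RIP.

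Fbxw7, the receptor that sends Myc and cyclin E to destruction, had 4.05 FPKM in the Mettl3 RIP and 2.30 in the input, 1.76-fold, and 4.38 FPKM in the Zfp217 RIP and 2.32 in the input, 1.89-fold. Fbxw5 had 3.43 FPKM in the Zfp217 RIP and 1.14 in the input, 3.02-fold. Fbxl5, which controls iron regulatory proteins, had 3.28 FPKM in the Zfp217 RIP and 1.26 in the input for one transcript, 2.60-fold. Another, ENSMUST00000114047, had 8.71 FPKM in the Zfp217 RIP and 2.65 FPKM in the Mettl3 RIP with an input of 0. The lowest ratio of all the families in the Mettl3 table was that of Fbxl20, with 2.12 FPKM in the RIP against 1.41 in the input, 1.501-fold.

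Among the Usp deubiquitinases, 13 of 20 transcripts above the input limit reached 2-fold in the Mettl3 RIP, 65.0%, and 5 of 15 in the Zfp217 RIP, 33.3%, beside 54.6% and 39.2% of all. The Mettl3 share was unstable, at 2 of 8 with an input limit of 2 FPKM, beside 51.5% of all. It was 11 of 29, 37.9%, with no limit and 1 FPKM added, beside 53.3% of all. Usp36, which works in the nucleolus, had 5.28 FPKM in the Mettl3 RIP and 1.197 in the input, 4.41-fold, and 2.71 FPKM in the Zfp217 RIP and 1.21 in the input, 2.24-fold. Usp31 had 7.21 FPKM in the Mettl3 RIP and 1.84 in the input, 3.92-fold, and was 1.89-fold higher in the Zfp217 RIP. Usp9x, a large deubiquitinase encoded on the X chromosome, was the most abundant in both, with 32.4 FPKM in the Mettl3 RIP and 27.5 FPKM in the Zfp217 RIP. Over inputs of 17.1 and 17.3 FPKM these were 1.89-fold and 1.58-fold.

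Usp48, whose protein is found in the nucleus, had the highest Zfp217 ratio of the deubiquitinases above the input limit, in its transcript ENSMUST00000105840. The Zfp217 table listed 3 of its transcripts, with 10.7 FPKM in the RIP against 3.75 in the input for ENSMUST00000055131, 7.67 and 1.84 for ENSMUST00000105840, and 4.98 and 0.743 for ENSMUST00000105842. Their sum, which leaves out transcripts that are not listed, was 23.4 FPKM in the Zfp217 RIP and 6.33 in the input, 3.69-fold. For Mettl3 only ENSMUST00000105840 was listed as protein-coding, with 4.36 FPKM in the RIP against 1.82 in the input, 2.40-fold. Usp34, a deubiquitinase of the Wnt pathway, had a transcript at 24.1 FPKM in the Mettl3 RIP and 11.7 in the input, 2.05-fold. A different transcript had 3.11 FPKM in the Zfp217 RIP and 1.05 in the input, 2.96-fold. The Usp34 transcript in both tables, ENSMUST00000130131, went the other way, at 2.59-fold for Mettl3 and 1.71-fold for Zfp217.

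Usp7, which stabilises Mdm2 and p53, had 4.16 FPKM in the Mettl3 RIP and 4.31 FPKM in the Zfp217 RIP against an input of 0. Usp37, which acts on cyclin A, had 7.21 FPKM in the Mettl3 RIP and 2.50 FPKM in the Zfp217 RIP against an input of 0. Usp16, which removes ubiquitin from a histone, had 1.75 FPKM in the Mettl3 RIP against 0 and was not listed for Zfp217. Usp28 was listed for Zfp217 only, with 13.7 FPKM in the RIP against 8.32 in the input, 1.65-fold. Usp6nl matches by name, though its product is a regulator of Rab proteins. Of the Otud genes, Otud4 had 21.3 FPKM in the Mettl3 RIP and 8.08 in the input, 2.63-fold, and Otud6b had 4.88 FPKM in the Zfp217 RIP against an input under 0.01 FPKM.

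Of the 205 transcripts, 70 were in both tables, 44.3% of those for Mettl3 and 59.8% of those for Zfp217. Over all protein-coding transcripts the shares were 43.9% and 55.4%. The tables share the input library, so ratios are set side by side only. Of 41 transcripts whose input was at least 1 FPKM in both tables, 12 were at least 2-fold higher in both RIPs, 29.3%, where the share of all 1162 such protein-coding transcripts was 31.9%. Another 17, 41.5%, reached 2-fold for Mettl3 only, where the share of all 1162 was 31.4%, and 3, 7.32%, for Zfp217 only, where it was 13.8%. The other 9 reached it in neither, as did 22.9% of all. The 12 include Fbxo45, whose Zfp217 ratio lies at the limit.

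**Figure D3:**
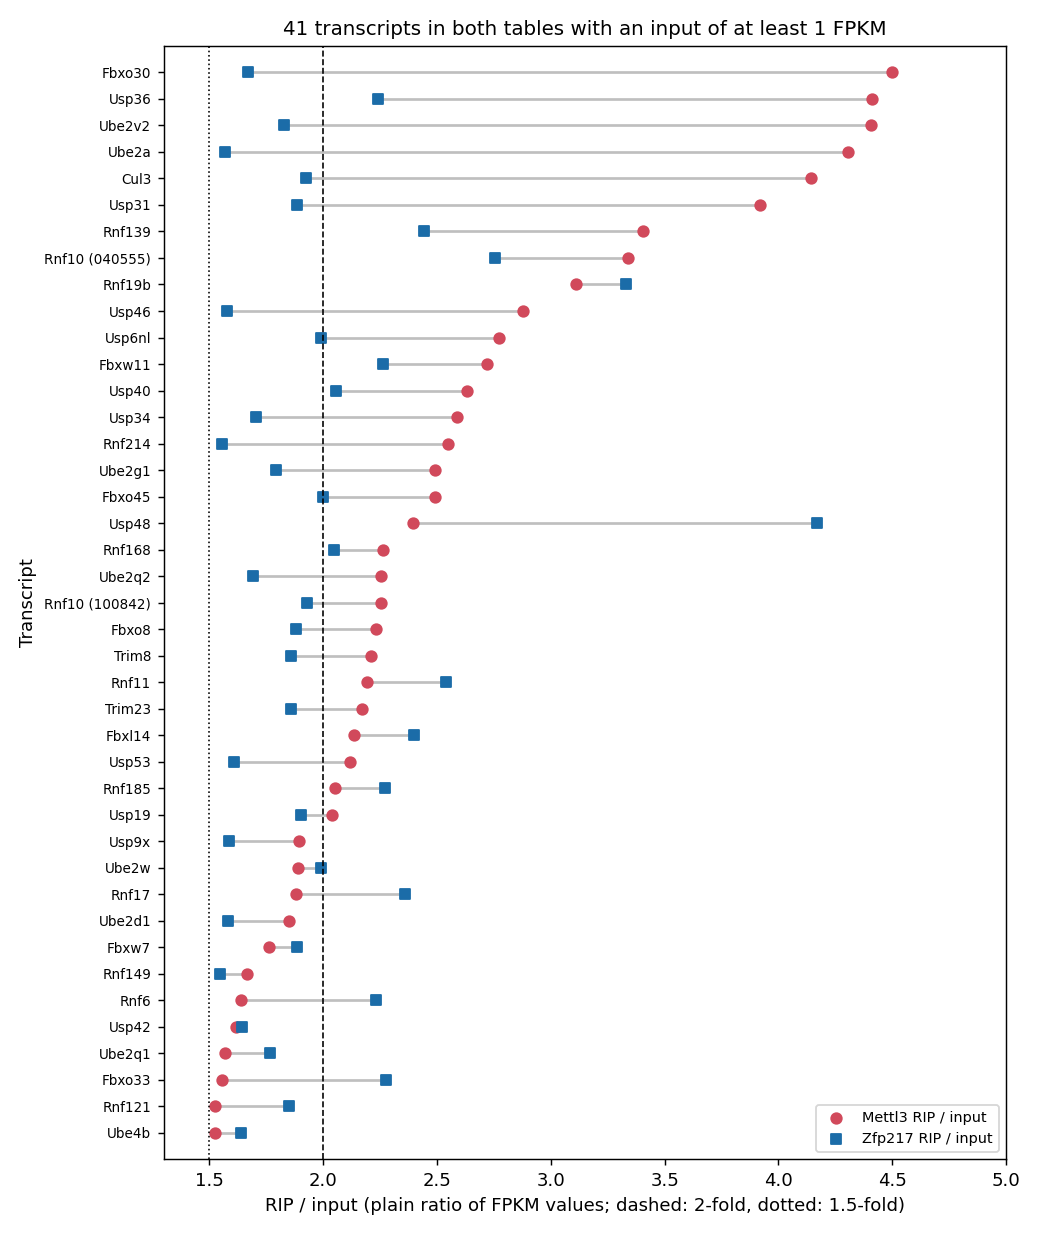
Plain ratio of RIP over input (horizontal) for the 41 transcripts found in both tables and above the input limit of 1 FPKM, ordered by the Mettl3 ratio; red circles are Mettl3 and blue squares Zfp217, and digits in brackets tell 2 Rnf10 transcripts apart. Fbxo30, Usp36, Ube2v2, Ube2a and Cul3 lie above 4-fold for Mettl3 and between 1.57-fold and 2.24-fold for Zfp217, while Usp48 lies at 2.40 for Mettl3 and 4.17 for Zfp217.

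Set against each other, the RIP levels were higher for Mettl3 than for Zfp217 in 46 of the 70 transcripts, with a median ratio of 1.18. Over all 2813 protein-coding transcripts in both tables the median was 1.08, and 57.7% were higher for Mettl3. In 47 of the 70 the RIP levels lay within 1.5-fold of each other. Furthest to the Mettl3 side was Rnf146, a ligase that recognises poly-ADP-ribosylated proteins, with 4.72 FPKM in the Mettl3 RIP and 1.43 FPKM in the Zfp217 RIP, 3.30-fold apart. Next came Rnf170 with 3.60 and 1.13 FPKM in the Mettl3 and Zfp217 RIPs, then Usp37, Ube2a and Fbxo30. Other Rnf146 transcripts in the Zfp217 table, with 3.03 and 1.78 FPKM, were not listed for Mettl3.

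Furthest to the Zfp217 side was Ube2f, a conjugating enzyme for the ubiquitin-like protein Nedd8. Its transcript ENSMUST00000171112 had 1.48 FPKM in the Mettl3 RIP and 5.01 FPKM in the Zfp217 RIP, 0.296-fold, over an input of 0.0781 and 0.0792 FPKM. Fbxl5 followed at 0.304, Fbxo3 at 0.440, Usp14 at 0.544 and Usp48 at 0.568. Another Ube2f transcript stood the other way, with 2.45 FPKM in the Mettl3 RIP and 1.57 FPKM in the Zfp217 RIP.

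A further 10 genes were in both tables by different transcripts only, among them Cul4b, Fbxw2, Fbxw5, Otud4, Rnf111, Rnf125, Trim44, Ube2k and Ube2m. Rnf111 differed from Cul4b in kind, because its 2 listed transcripts have identical coding sequences of 2967 bases and differ only outside them. ENSMUST00000113595 of Rnf111 had 10.7 FPKM in the Mettl3 RIP and 5.90 in the input, 1.82-fold, and ENSMUST00000034739 had the 3.42-fold ratio for Zfp217 given above. For Trim44, the Mettl3 table held a transcript of 5612 bases and the Zfp217 table one of 516 bases, with 1.33 FPKM in the RIP against 0 in the input. A ratio beside a symbol therefore belongs to 1 transcript and not to the gene. Summed over listed transcripts, 63.5% of these genes for Mettl3 and 51.8% for Zfp217 were at least 2-fold higher, beside 60.5% and 45.9% of all genes. Transcripts that are not listed are left out of such sums, and they may lie below the limits of the tables. A sum is therefore not the level of the whole gene.

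The share of transcripts at least 2-fold higher went with the input level, which is the denominator of the ratio. For Mettl3 it was 22 of 35 at 1 to 2 FPKM of input, 18 of 33 at 2 to 5 FPKM and 12 of 24 at 5 FPKM or more. For Zfp217 it was 18 of 28, 10 of 21 and 0 of 11. All listed protein-coding transcripts showed the same order, at 60.8%, 55.0% and 46.3% for Mettl3 and 50.1%, 37.6% and 21.7% for Zfp217. The Spearman correlation of log2 ratio with input over the transcripts of the ubiquitin families was -0.12 for Mettl3 (92 transcripts of 1 pair of libraries) and -0.45 for Zfp217 (60 transcripts). Over all protein-coding transcripts it was -0.16 and -0.27.

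**Figure D4:**
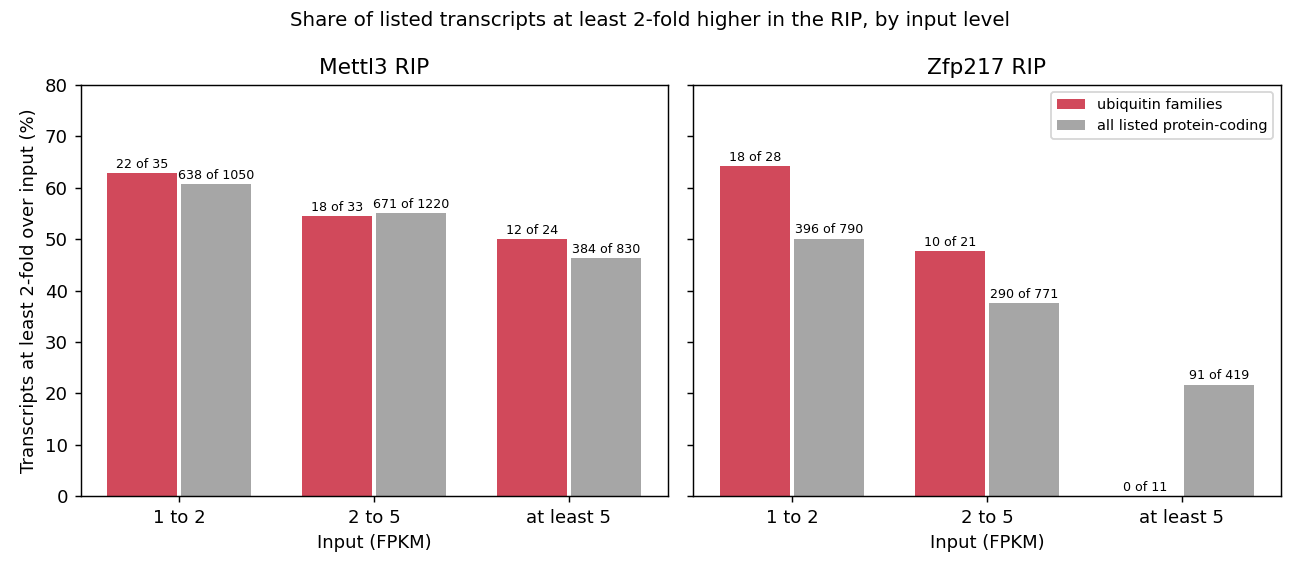
Percent of listed transcripts at least 2-fold higher in the RIP than in the input (vertical, from 0) by input level in FPKM (horizontal), for the ubiquitin families (red) and all listed protein-coding transcripts (grey), with counts above the bars. Bars get lower with input in all cases, to 12 of 24 for Mettl3 and 0 of 11 for Zfp217 among the ubiquitin families at 5 FPKM or more.

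Inputs under 0.01 FPKM, 0 included, were found for 43 of 158 transcripts for Mettl3, 27.2%, and 37 of 117 for Zfp217, 31.6%. These were near or below the shares of all protein-coding transcripts, 27.7% and 37.1%. After Ube3a, the highest RIP levels among them for Mettl3 were those of Trim2, Usp37 and Trim33, between 7.21 and 7.24 FPKM. For Zfp217 the highest was Fbxl5 at 8.71 FPKM, followed by Ube3a, Ube2d2 at 5.45 FPKM, Otud6b and Trim33.

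Transcript length and base composition were not used to choose these families. In GENCODE M21, the 143 matched transcripts for Mettl3 had a median length of 3688 bases, where all matched protein-coding transcripts had 3159. The median 3′ untranslated region was 1610 bases in the ubiquitin families and 1330 in all. For Zfp217 the median length was 3530 bases in 101 matched transcripts and 2394 in all, and the median 3′ untranslated region 1307 and 732 bases. GC content was lower in the ubiquitin families, at 46.0% and 48.4% in all for Mettl3, and 46.9% and 50.5% in all for Zfp217. These differences were not tested. Within the ubiquitin families, log2 ratio for Mettl3 had a Spearman correlation of 0.23 with 3′ untranslated length and -0.23 with GC content over 83 transcripts of 1 pair of libraries, beside 0.19 and -0.23 in all. For Zfp217 the correlations were -0.14 with 3′ untranslated length and 0.10 with GC content over 51 transcripts, beside -0.12 and 0.05 in all.

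Mettl3 methylates adenosines in a short consensus whose commonest form is GGACT, so transcripts were searched for these letters on the sense strand. They were found in 93.0% of the matched transcripts of these families for Mettl3 and 90.1% for Zfp217, where the shares of all matched protein-coding transcripts were 88.7% and 84.4%. A longer transcript has more places for a match, and the transcripts of these families were longer. Per kilobase the order was the other way, with a median of 0.916 matches in the ubiquitin families and 0.972 in all for Mettl3. For Zfp217 the medians were 0.901 and 1.025. Log2 ratio had a Spearman correlation with matches per kilobase of 0.19 for Mettl3 over 83 transcripts of these families, beside -0.11 in all. For Zfp217 it was 0.29 over 51 transcripts, beside -0.01 in all. Each rests on 1 pair of libraries, and the difference from all transcripts was not tested. Within 200 bases on either side of the stop codon, where m6A is known to be dense, the shares were 43.4% in the ubiquitin families and 37.8% in all for Mettl3, and 45.8% and 39.6% in all for Zfp217. The match nearest the stop codon is shown in capitals for 2 of the transcripts with the highest ratios, taken so that both a coding and an untranslated position appear.
Cul3: tgatttattcttGGACTgtactcttcgca
Usp36: ggcgttgcttcaGGACTcatctgataagg

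Counted from the first base of the stop codon, the match in Cul3 starts at 31, in the 3′ untranslated region, and that in Usp36 at -277, in coding sequence. The Cul3 transcript holds 5 matches in all and the Usp36 transcript 7. Cul3 lies on chromosome 1 from 80264923 to 80340480 and Usp36 on chromosome 11 from 118259651 to 118290244, both on the minus strand of GRCm38. Of the other highest ratios, Fbxo30 lies on chromosome 10 from 11281330 to 11298052 (plus strand), Ube2v2 on chromosome 16 from 15552077 to 15595773 (minus strand), Trim44 on chromosome 2 from 102300119 to 102407828 (minus strand) and Usp48 on chromosome 4 from 137593755 to 137658537 (plus strand). A match to these letters is not a methylated site.

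Other genes of the ubiquitin pathway were taken from 6 lists, and their counts stand beside the 54.6% for Mettl3 and 39.2% for Zfp217 of all protein-coding transcripts that reached 2-fold above the same input limit. Of 20 HECT ligases, 9 were in each table, and all 4 transcripts with an input of at least 1 FPKM reached 2-fold in the Mettl3 RIP and 2 of 3 in the Zfp217 RIP. Wwp1, a ligase of the Nedd4 type, had 11.6 FPKM in the Mettl3 RIP and 2.50 in the input, 4.64-fold. Itch, of the same type, had 4.48 FPKM in the Zfp217 RIP and 1.45 in the input, 3.09-fold. Of 50 other RING ligases and adaptors, 25 were listed for Mettl3 and 20 for Zfp217, with 11 of 18 and 5 of 9 transcripts at least 2-fold higher. Spop, a substrate adaptor of Cul3, had 12.4 FPKM in the Zfp217 RIP and 3.40 in the input, 3.65-fold. Mdm2, the ligase of p53, had 4.85 FPKM in the Zfp217 RIP and 1.62 in the input, 2.99-fold.

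Of the ubiquitin, SUMO and activating enzyme genes, 3 of 5 transcripts for Mettl3 and 2 of 5 for Zfp217 were at least 2-fold higher. Sumo2 led with 119 FPKM in the Mettl3 RIP and 21.9 in the input, 5.43-fold. The anaphase-promoting complex, a cullin-like ligase of mitosis, had 1 of 2 for Mettl3 and 0 of 4 for Zfp217. Its core subunit Cdc27 had 26.0 FPKM in the Mettl3 RIP and 8.29 in the input, 3.13-fold. The other deubiquitinases and SUMO proteases had 6 of 8 for Mettl3 and 1 of 3 for Zfp217, among them Zranb1 at 3.51-fold for Mettl3 and Senp6 at 2.53-fold and 2.28-fold. Proteasome genes had 4 of 6 for Mettl3 and 4 of 7 for Zfp217. Psma3, a subunit of the proteasome core, had 7.42 FPKM in the Mettl3 RIP and 1.98 in the input, 3.75-fold, and Psmd4, its ubiquitin receptor, had 18.1 FPKM in the Zfp217 RIP and 6.49 in the input, 2.80-fold.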

How the data were processed

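Per the labels' protocols, each antibody was added to CCE nuclear lysate and pulled down with protein G beads, Trizol was used to recover RNA, and a TruSeq kit to build the libraries. TopHat2 2.0.8, Bowtie2, Cuffdiff, Cufflinks, CASAVA 1.4 and build mm9 are named in the submitters' processing notes. What each did, and with which settings, is not given in the sources used here. As values, the authors deposited FPKM values of input and RIP per Ensembl transcript, and a log2 fold change that differed from the log2 ratio of those FPKM values by at most 0.00466. That deposited column was used for this check only.

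The plain ratio of RIP over input was taken within each table for transcripts with an input of at least 1 FPKM, and a ratio of at least 2 was counted. Under 0.01 FPKM of input no fold was given. All listed protein-coding transcripts gave the background. With 1 library per group no test was made, so no mean or error exists. FPKM values of short RNAs were searched for whole multiples of 1 read, but at most 45.5% came out whole within 0.03, so the depth is unknown.

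Named genes were, per RIP, the 10 highest ratios, the highest, lowest and most abundant of each subfamily, the 8 highest in both RIPs, the 5 furthest apart each way, the 5 most abundant with an input under 0.01 FPKM, 25 genes listed by name, and from other lists the 2 highest and the lowest. Of the 25, 12 had no protein-coding transcript in either table, among them Rnf20, Rnf40, Trim28, Huwe1, Usp22, Usp44, Ube2c, Ube2s, Cul1, Cul4a and Fbxl2. Cul2, Cul5, Rnf169, Ube2n and the further transcripts of Ube2f, Ube2j2, Rnf146, Usp34 and Usp48 were named after their values were seen, and a few others within the rule are not reported here. The members and lists were chosen with earlier results of these data known. Alternatives were other input limits, added constants of 1 and 0.1 FPKM, sums per gene and a 3-fold limit.

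GENCODE M21 on GRCm38 gave lengths, sequences and gene positions. It matched 90.5% of the transcripts for Mettl3 and 86.3% for Zfp217, and no mm9 coordinate was used. Tools were python 3.11.15, pandas 2.3.3 and scipy 1.17.1.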

Additional observations from a re-analysis of the deposited data

Results flagged for a closer look

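Transcripts of these families that are not classed as protein-coding lie outside the comparisons above, and some were higher in a RIP than in the input. With an input of at least 1 FPKM, the highest ratios for Mettl3 were 3.43 for a processed transcript of Usp48, 2.30 for a retained-intron transcript of Usp14 and 2.30 for a nonsense-mediated decay transcript of Ube2g1. The Zfp217 table had 4.32 for a processed transcript of Ube2b, 2.57 for a retained-intron transcript of Usp45 and 1.799 for a nonsense-mediated decay transcript of Rnf10. Every listed transcript is at least 1.5-fold higher by the selection of the tables. The 60 such transcripts for Mettl3 and 56 for Zfp217 included 10 and 11 with an input of at least 1 FPKM, of which 6 and 7 were at least 2-fold higher. Of these 10 and 11, only 3 and 4 were retained-intron transcripts, with 2 and 3 at least 2-fold higher. Of all retained-intron transcripts above that limit, 87 of 176 for Mettl3 and 59 of 162 for Zfp217 were at least 2-fold higher. No such share is given here for the other classes. Each value rests on 1 library per group and was not tested.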

How the results depend on the processing

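With an input limit of 2 FPKM in place of 1, 30 of 57 transcripts for Mettl3, 10 of 32 for Zfp217 and 6 of 22 for both RIPs were at least 2-fold higher. With no limit and 1 FPKM added the counts were 79 of 158, 54 of 117 and 23 of 70. With 0.1 FPKM added they were 113, 75 and 34 of the same numbers, with median log2 ratios of 1.35 for Mettl3 and 1.29 for Zfp217. With a mean of at least 1 FPKM and 1 FPKM added the medians were 0.93 and 0.82. Summed per gene, 19 of 44 genes, 43.2%, reached 2-fold in both RIPs, beside 29.3% of transcripts in the main count. The sums hold only transcripts that passed the limits of the tables, so the 2 shares are not alike in kind. No share of all transcripts or genes is given for the counts in both RIPs under these other settings. At a 3-fold limit the counts were 15 of 92, 5 of 60 and 1 of 41. The shares there were 16.3% for Mettl3 and 8.33% for Zfp217, beside 18.1% and 9.80% of all. With no limit the shares were 50.0% and 46.2% with 1 FPKM added, beside 53.3% of all in both tables, and 71.5% and 64.1% with 0.1 FPKM added, beside 72.1% and 69.4%. Under a limit of 2 FPKM the shares were 52.6% for Mettl3 and 31.3% for Zfp217, beside 51.5% and 32.0% of all protein-coding transcripts, so the Zfp217 share no longer lay above that of all transcripts. With 1 FPKM added and a mean of at least 1 FPKM the shares, 43.5% and 38.9%, lay below those of all transcripts, 48.4% and 45.2%. Of 140 recomputed subfamily counts, 70 moved by over 1.5 times, and these counts are small. The number of transcripts counted changed with most settings too, so a moved count is not always a moved share. For Usp in the Mettl3 RIP, 13 of 20, 65.0%, became 20 of 29, 69.0%, with no limit and 0.1 FPKM added. A 3-fold limit can only lower a count. Of the named values that had reached 2-fold, 12 fell under it with 1 FPKM added. These were Trim23, Trim24, Fbxl14, Fbxo8, Rnf11 and Usp48 for Mettl3, and Rnf11, Rnf139, Fbxo33, Fbxw11, Fbxl5 and Usp36 for Zfp217. The 74 named values in all also hold many that were under 2-fold without the addition and could not fall. Examples are log2 ratios of 0.84 for Rnf4 in the Mettl3 RIP and 0.65 for Ube2a in the Zfp217 RIP. No paired analysis was possible because each group had 1 library. No replicate could be left out. Depth is unknown, so how far counting error reaches into ratios at low FPKM could not be given.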

Other observations

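Trim28, a corepressor of the Trim family among the 25 genes listed by name, had no protein-coding transcript in either table. A retained-intron transcript of Trim28 was in the Zfp217 table, with 6.06 FPKM in the RIP and 2.46 FPKM in the input, 2.46-fold. Fbxw2 had processed transcripts in both tables, among them ENSMUST00000131534 with 5.23 FPKM in the Mettl3 RIP and 1.64 in the input, 3.18-fold, and ENSMUST00000126051 with 3.96 FPKM in the Zfp217 RIP and 1.62 in the input, 2.45-fold.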
